A study of Saccharomyces cerevisiae with 8 samples.

Results

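The genes described here are the 4 alpha-specific genes of budding yeast (MF(ALPHA)1, MF(ALPHA)2, STE3 and SAG1) and the 6 gene models of the mating-type cassettes (HMLALPHA1, HMLALPHA2, MATALPHA1, MATALPHA2, HMRA1 and HMRA2). They were taken by name from the deposited table of read counts and make up 10 of its 6596 gene models. Poly(A) RNA had been sequenced in 4 samples of wild type (WT) and 4 of mcd1-1, and the labels letter the replicates of each group A to D. All 8 samples came from a W303-1a derivative in logarithmic phase, grown in YPD at 31 °C for 2 generations from an optical density of 0.2, so that WT and mcd1-1 differ in the labels by genotype alone. Cohesin, a ring-shaped complex, ties sister chromatids to each other, and mcd1-1 is a mutant allele of the gene for its kleisin subunit, MCD1. The labels do not say whether replicates came from separate cultures or clones, so a p-value here measures only how far these samples spread, which may be technical.

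A haploid budding yeast cell is of mating type a or alpha, as set by the genes at the MAT locus of chromosome III. In alpha cells, the protein alpha1 works with Mcm1 to switch on the alpha-specific genes, and alpha2 works with Mcm1 and the Tup1-Cyc8 corepressor to keep the a-specific genes off. In a cells neither protein is made, the alpha-specific genes stay off and the a-specific genes are on through Mcm1. Spare copies of both kinds of information are kept silent by Sir proteins at HML (alpha) and HMR (a), near the ends of the same chromosome. W303-1a is known as a strain of mating type a, and the labels give no mating type for the derivative used here.

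Libraries held 22331070 to 58506447 counts, and levels are given as CPM, the counts of a gene per 1000000 counts of its library. The limit that a count of 0 allows (3 counts) lay between 0.0513 and 0.134 CPM before scaling, and it covers counting error only. Levels below are scaled by edgeR's TMM method, and changes are log2 fold changes of mcd1-1 against WT with their standard error (SE). A change was called when the adjusted p of edgeR's quasi-likelihood test was under 0.05 over the 6558 models that passed the low-count filter, and all 10 genes passed it. Replicates A and B stood apart from C and D in both groups across the whole table, and the labels name no batch that would match these sets. Values within each set are therefore given where they bear on a gene. MCD1 itself was at 80.2 ± 5.2 CPM in WT and 312 ± 44.6 CPM in mcd1-1 (SD, n = 4; log2 fold change 1.96 ± 0.15, adjusted p = 4.53e-05); reads of a mutant allele count as MCD1, so this checks no label.

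The a-specific genes and the alpha-specific genes served as markers of the cells. The 7 a-specific genes summed to 985 to 1181 CPM in WT and 703 to 980.5 CPM in mcd1-1, and none was at 0 in any library. The 4 alpha-specific genes summed to 35.7 to 45.9 CPM in WT and 108 to 146 CPM in mcd1-1. There were thus 3.03 to 4.66 alpha-specific counts per 100 a-specific counts in WT and 11.04 to 20.8 in mcd1-1, and every library held more counts of a-specific than of alpha-specific genes. In RNA from a whole culture, more cells with alpha-specific RNA and more such RNA in each cell cannot be told apart.

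The promoters of the alpha-specific genes are shown because alpha1 and Mcm1 act through a joint element in them. The windows below hold 60 bases of each, read 5′ to 3′ on the gene's own strand from the RefSeq R64 genome, with matches to either motif in capitals. They lie at chrXVI:193314-193373 (plus strand) for MF(ALPHA)1, chrVII:345420-345479 (minus) for MF(ALPHA)2, chrXI:114921-114980 (minus) for STE3 and chrX:445173-445232 (minus) for SAG1.
MF(ALPHA)1: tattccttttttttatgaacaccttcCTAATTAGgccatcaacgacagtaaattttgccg
MF(ALPHA)2: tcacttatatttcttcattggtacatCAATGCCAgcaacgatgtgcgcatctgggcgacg
STE3: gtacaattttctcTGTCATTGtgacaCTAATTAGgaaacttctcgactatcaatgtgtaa
SAG1: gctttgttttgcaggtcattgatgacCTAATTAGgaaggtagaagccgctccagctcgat
The letters CTAATTAG, a palindrome from the part of the element that Mcm1 binds, and CAATGNCA, from the part next to it, were searched on both strands in the 500 bases before the start codon. CTAATTAG was found in MF(ALPHA)1 at positions -361 and -308, in STE3 at -327 and in SAG1 at -345, but not in MF(ALPHA)2. CAATGNCA was found in MF(ALPHA)2 at -300, in SAG1 at -270 and, on the other strand, in STE3 at -340, but not in MF(ALPHA)1. No match to one motif overlapped a match to the other in these promoters. Of 6000 promoters of that length, 0.917% held CTAATTAG and 7.6% held CAATGNCA, and the 3 that held both were those of STE3, SAG1 and HAM1. The motif letters were chosen with these promoters in view, so the matches describe the sequences and are no evidence of binding.

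The cassettes are shown at the point where the a and alpha versions part, because shared sequence decides which of their counts can be told apart. Each line gives 30 bases of the coding strand of the alpha2 or a2 model (minus strand of chromosome III, R64), at chrIII:12929-12958, chrIII:200089-200118 and chrIII:293722-293751, with the start of the unbroken run that all 3 loci share in capitals.
HML: agcatactagacataAATAAAAAGCTCTTT
MAT: agcatactagacataAATAAAAAGCTCTTT
HMR: agaacaaaaatcaagAATAAAAAGCTCTTT
From this junction the 3 loci were identical for 558 bases to the 3′ end of the alpha2 or a2 model. The first 75 of the 633 coding bases of alpha2 lay outside the shared run. At HMR the run reached 198 bases upstream of the start codon of a2.

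The alpha-specific genes were higher in mcd1-1 than in WT for the pheromone gene MF(ALPHA)1, the receptor gene STE3 and the agglutinin gene SAG1, by 7.29-fold, 3.74-fold and 2.96-fold. The second pheromone gene, MF(ALPHA)2, did not pass the test with all libraries, at 1.46-fold. None of the 6 cassette models was called, none had an unadjusted p under 0.05, and DESeq2 and limma-voom called none of them either. Of the 10 genes, 3 were called higher and 0 lower, where 20.7% of all models tested were called higher and 19.7% lower. With the replicate letter as a block the count was 6 higher and 0 lower, beside 29.4% and 30.2% of all models, and the genes added were MF(ALPHA)2, HMLALPHA1 and MATALPHA1. The median log2 fold change was 1.74 over the 4 alpha-specific genes, 0.20 over the 6 cassette models and -0.01 over all models.

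MF(ALPHA)1 (YPL187W, chrXVI:193648-194145) encodes the main precursor of the alpha-factor pheromone, which a cells sense. It stood at 0.452, 0.711, 0.758 and 0.953 CPM in WT replicates A to D, and at 5.29, 7.07, 4.82 and 4.36 CPM in mcd1-1 replicates A to D. The mcd1-1 libraries all lay above the WT libraries, with no overlap, as in 22.1% of all models, against 21.0% with the mcd1-1 libraries all below. These levels rest on 9 to 38 counts per WT library and 139 to 282 per mcd1-1 library. The mean rose from 0.718 ± 0.206 to 5.38 ± 1.19 CPM (SD, n = 4), a log2 fold change of 2.87 ± 0.28 (edgeR, adjusted p = 0.000134). By log2 fold change it ranked 77 of 6558 models from the top. The ratio of means was 10.6 within replicates A and B and 5.36 within C and D.

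MF(ALPHA)2 (YGL089C, chrVII:344791-345153) encodes the minor precursor of the same pheromone. Its levels were 7.39, 6.80, 5.76 and 4.99 CPM in WT A to D and 10.6, 10.2, 6.97 and 8.74 CPM in mcd1-1 A to D. Replicate C of mcd1-1 lay below replicate A of WT, so the groups overlapped, while within each set both mcd1-1 libraries lay above both WT libraries. The mean was 6.23 ± 1.07 CPM in WT and 9.11 ± 1.63 CPM in mcd1-1, a log2 fold change of 0.55 ± 0.20 with an adjusted p of 0.0516 in edgeR's test. The replicate block gave 0.55 with an adjusted p of 0.0156. Leaving out WT A or mcd1-1 C gave an adjusted p of 0.0498 and 0.0242. Leaving out any other single library kept the adjusted p above 0.05, at most 0.122 (without WT D). The ratio of means was 1.46 within each set.

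The balance between the pheromone genes also differed. For every 100 counts of MF(ALPHA)2 there were 6.12, 10.5, 13.2 and 19.1 counts of MF(ALPHA)1 in the WT libraries, replicate A first, against a range of 49.8 to 69.7 among the mcd1-1 libraries. This ratio within a library does not depend on scaling, and its groups did not overlap. It was chosen after its values were seen and has no test.

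STE3 (YKL178C, chrXI:113215-114627) encodes the receptor for a-factor, found on alpha cells. Its levels were 5.78, 5.02, 5.61 and 4.44 CPM in WT A to D and 15.4, 23.8, 20.2 and 18.6 CPM in mcd1-1 A to D, without overlap. The mean rose from 5.21 ± 0.61 to 19.5 ± 3.49 CPM, a log2 fold change of 1.90 ± 0.18 (edgeR, adjusted p = 0.000112). The ratio of means was 3.62 within A and B and 3.86 within C and D. The model overlaps the model YKL177W by 272 bases, and the sources used here do not give the strand setting of the counting. YKL177W was itself at 0.704 ± 0.309 CPM in WT and 4.48 ± 1.36 CPM in mcd1-1 (log2 fold change 2.68 ± 0.36, adjusted p = 0.000679).

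STE2, the receptor gene of a cells, was set beside STE3 within each library, a ratio chosen after its values were seen. There were 1.28 to 1.59 counts of STE3 per 100 counts of STE2 in the WT libraries, against 5.4 to 12.1 in the mcd1-1 libraries, the highest being replicate B. STE2 was at 367 ± 37.7 CPM in WT and 277 ± 75.8 CPM in mcd1-1, a log2 fold change of -0.41 ± 0.21 that was not called (adjusted p = 0.148). It was lower in mcd1-1 within A and B (-0.91, adjusted p = 0.000648) but not within C and D (0.06, adjusted p = 0.434), so in A and B the ratio also holds the lower STE2. Per kilobase, STE2 was at 283 ± 29.1 CPM in WT and 214 ± 58.5 CPM in mcd1-1, against 3.69 ± 0.43 and 13.8 ± 2.47 CPM for STE3.

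SAG1 (YJR004C, chrX:442909-444861) encodes alpha-agglutinin, the cell wall protein by which alpha cells stick to a cells during mating. Its levels were 22.2, 23.1, 33.3 and 35.5 CPM in WT A to D and 77.6, 105.4, 78.9 and 76.6 CPM in mcd1-1 A to D. The groups did not overlap, and replicate B of mcd1-1 stood above its 3 fellow libraries, which lay close together. The mean rose from 28.5 ± 6.84 to 84.6 ± 13.9 CPM, a log2 fold change of 1.57 ± 0.20 (edgeR, adjusted p = 0.000468). It was 2.01 within A and B and 1.21 within C and D, with a ratio of means of 4.04 and 2.26, and the difference between the sets was not tested. SAG1 was also set beside AGA2, which encodes the binding subunit of the a-cell agglutinin. Per 100 counts of AGA2, SAG1 had 51.6 and 58.3 counts in WT A and B and 99.9 and 124.5 in WT C and D. The mcd1-1 libraries had 154 and 191 in A and B and 142 and 153 in C and D. This ratio has no test, and AGA2 was itself called higher in mcd1-1.

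**Figure D1:**
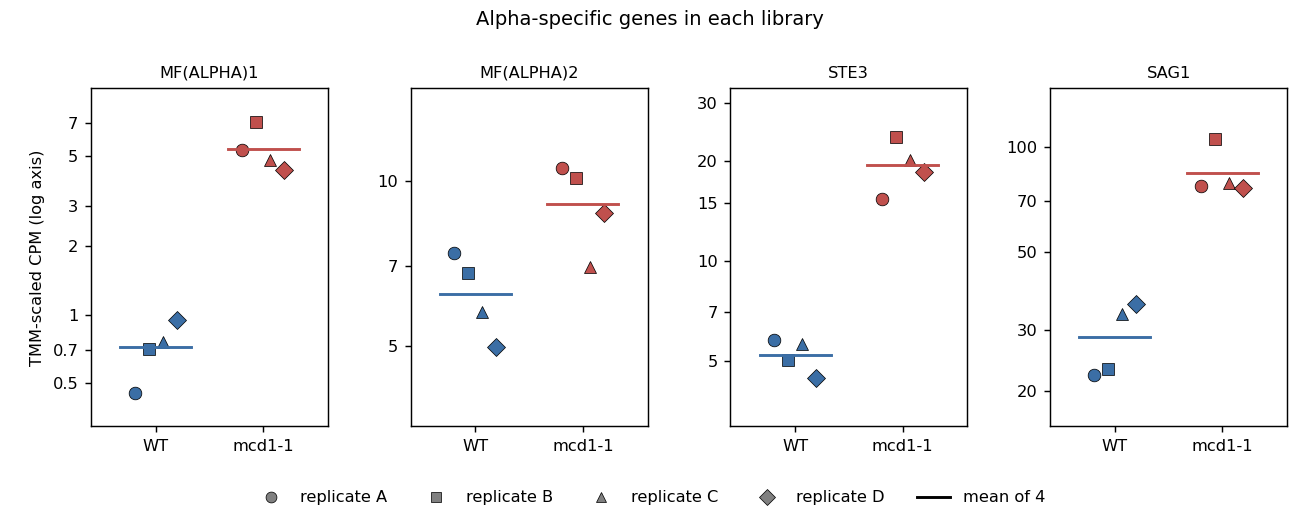
TMM-scaled CPM (log axis) of the 4 alpha-specific genes in each of the 8 libraries, with a marker shape for each replicate letter and a line for the mean of 4. MF(ALPHA)1, STE3 and SAG1 show no overlap between WT and mcd1-1, while MF(ALPHA)2 does.

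Calls of higher level were frequent among genes of low level. Among the 2483 models whose mean over the 8 libraries lay between those of the lowest and the highest alpha-specific gene (3.05 to 56.6 CPM), 33.5% were called higher, beside 20.7% of all models, and the median log2 fold change was 0.25. In that range 43 models had a log2 fold change at or above that of MF(ALPHA)1, 163 at or above that of STE3 and 256 at or above that of SAG1, each gene counted with its own. The 3 called genes are thus among the larger increases at their level, but are not alone there.

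The cassette models hold largely the same letters. HMLALPHA1 (chrIII:13282-13809) and MATALPHA1 (chrIII:200442-200969) were identical over 528 bases, HMLALPHA2 (chrIII:12386-13018) and MATALPHA2 (chrIII:199546-200178) over 633 bases, and the 360 bases of HMRA2 (chrIII:293179-293538) matched the 3′ part of alpha2. Every stretch of 50, 100 or 150 bases in these 5 models occurred in another cassette. HMRA1 (chrIII:293835-294321) shared no stretch of 50 bases with any other place, and neither did MF(ALPHA)2, STE3 or SAG1. In MF(ALPHA)1, 14.3% of 50-base stretches recurred within the gene itself and 0 of 100 bases. Counts were present in all 5 shared models, and how reads with more than 1 possible place were counted is something the sources used here do not give. The same reads may stand in more than 1 of these models. The split of counts between shared models therefore cannot be read as output of HML, MAT or HMR.

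**Figure D2:**
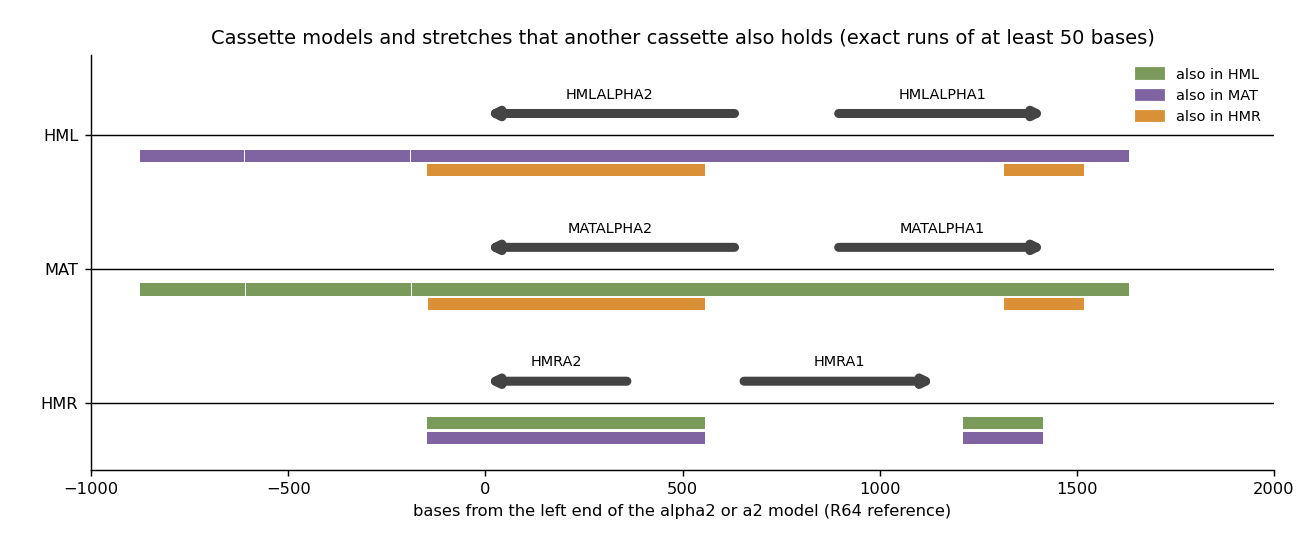
Map of the cassette models at HML, MAT and HMR, with position in bases from the left end of the alpha2 or a2 model (R64) and bars for exact runs of at least 50 bases that another cassette also holds. The run shared by HML and MAT covers both alpha genes (1821 bases at HML), whereas the bars of HMR stop short of HMRA1.

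The reference genome carries alpha information at MAT, and the table holds no model for a1 at MAT. In this reference the a1 sequence occurs at HMR only, so that reads of an a1 gene at MAT would fall on HMRA1. The counts under HMRA1, MATALPHA2 and HMRA2 are for that reason named here by the model they were assigned to and not by locus of origin.

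The alpha1 models were the least abundant cassette models. HMLALPHA1 (YCL066W) was at 2.01, 1.95, 0.758 and 0.426 CPM in WT A to D and 2.96, 4.07, 1.11 and 1.30 CPM in mcd1-1 A to D, from 17 to 44 counts per WT library and 32 to 119 per mcd1-1 library. Replicates A and B lay above C and D in both groups, and WT and mcd1-1 overlapped across the sets but not within them. Its log2 fold change of 0.90 ± 0.58 was not called (adjusted p = 0.242), and the replicate block gave 0.94 with an adjusted p of 0.0162.

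MATALPHA1 (YCR040W) followed the same order, at 2.46, 2.27, 0.795 and 0.526 CPM in WT A to D and 3.70, 4.68, 2.01 and 1.92 CPM in mcd1-1 A to D. Its groups overlapped across the sets and not within them. The log2 fold change was 1.05 ± 0.53 (adjusted p = 0.137) with all libraries, and 1.17 with an adjusted p of 0.00674 under the replicate block. Within replicates A and B the ratio of means was 1.77 for both alpha1 models, and within C and D it was 2.03 for HMLALPHA1 and 2.97 for MATALPHA1. Each alpha1 model overlaps another model at its 3′ end by 59 bases, YCL065W at HML and YCR041W at MAT. When each gene was summed with the model that overlaps it, MATALPHA1 had a log2 fold change of 0.74 with an adjusted p of 0.00489, and HMLALPHA1 had 0.78 with an adjusted p of 0.294. YCR041W by itself was at 9.12 ± 0.39 CPM in WT and 14.6 ± 1.11 CPM in mcd1-1. Its own log2 fold change was 0.68 ± 0.13 (edgeR, adjusted p = 0.00358). In every library it stood above MATALPHA1, so most of the counts in their sum came from YCR041W.

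Because the alpha1 models are identical, their sum depends less on how reads were split between them. It may still hold reads from elsewhere or the same reads more than once. In each alpha1 model 12.3% of 50-base stretches and 2.1% of 100-base stretches also occur at HMR. In edgeR's test the summed counts had a log2 fold change of 0.98 ± 0.54 (adjusted p = 0.176). The summed level was 4.47, 4.22, 1.55 and 0.953 CPM in WT A to D and 6.65, 8.75, 3.12 and 3.21 CPM in mcd1-1 A to D. Within each replicate set both mcd1-1 libraries lay above both WT libraries, while the groups overlapped across the sets. The difference was 2.63 CPM (exact permutation test that ignores the sets, 2-sided, p = 0.171, adjusted p = 0.257 over 3 such tests). The smallest p that 4 against 4 libraries can give is 0.0286. Per 100 counts of HMRA1 the alpha1 counts were 6.12, 5.54, 3.8 and 2.47 for the WT replicates, in the order of their letters, against 10.5, 12.1, 6.54 and 6.64 for those of mcd1-1, which did not overlap. That difference of 4.46 had the smallest possible p of 0.0286 in the exact permutation test and an adjusted p of 0.0858.

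The alpha2 and a2 models held most of the counts assigned to the cassettes. Since these models share sequence, the same reads may be counted in more than 1 of them, which would raise their sum. MATALPHA2 (YCR039C) was at 136, 125, 69.5 and 71.1 CPM in WT A to D and 164, 128, 79.0 and 76.3 CPM in mcd1-1 A to D. HMLALPHA2 (YCL067C) ran from 64.8 to 110.2 CPM in WT and from 70.3 to 135 CPM in mcd1-1. HMRA2 (YCR096C), whose protein has no known role in mating type, ran from 50.7 to 106 CPM in WT and from 54.1 to 143 CPM in mcd1-1. In all 3 the spread between replicates A and B on one side and C and D on the other was larger than the difference between WT and mcd1-1. The log2 fold changes were 0.16 ± 0.32, 0.17 ± 0.26 and 0.22 ± 0.37, with adjusted p of 0.723, 0.623 and 0.665, and no call was made under the replicate block. Without mcd1-1 replicate A the sign turned for MATALPHA2 (-0.04) and HMRA2 (-0.035). Together these 3 models were at 265 ± 89.3 CPM in WT and 300.4 ± 115 CPM in mcd1-1 (difference 35.4 CPM, exact permutation test, 2-sided, p = 0.543).

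Counts of models with shared sequence kept similar ratios. MATALPHA2 had 1.05 to 1.23 counts per count of HMLALPHA2 in the 8 libraries, and HMRA2 had 0.710 to 0.872 counts per count of MATALPHA2. MATALPHA1 had 1.05 to 1.81 counts per count of HMLALPHA1. These ratios overlapped between WT and mcd1-1.

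HMRA1 (YCR097W) encodes a1, the partner with which alpha2 represses haploid-specific genes in a/alpha diploids. It is the cassette model with sequence of its own, and it stood at 73.1, 76.2, 40.9 and 38.6 CPM in WT A to D and 63.5, 72.3, 47.7 and 48.4 CPM in mcd1-1 A to D. The log2 fold change was 0.02 ± 0.26 (adjusted p = 0.959). Within replicates A and B both mcd1-1 libraries lay below both WT libraries (log2 fold change -0.14, adjusted p = 0.293), and within C and D both lay above (0.31, adjusted p = 0.00183). The sign also turned without WT C (-0.11), without WT D (-0.13) and without mcd1-1 B (-0.05), and with RLE scaling or DESeq2.

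The gap between the replicate sets was common to the 6 cassette models. In each, A and B lay above C and D in WT and in mcd1-1, as MF(ALPHA)2 also did. In WT the mean of A and B was 3.35 times that of C and D for HMLALPHA1, 3.58 for MATALPHA1, 1.62 for HMLALPHA2, 1.86 for MATALPHA2, 2.01 for HMRA2 and 1.88 for HMRA1. Of all models, 27.1% had that order in both groups and 26.9% the opposite one.

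**Figure D3:**
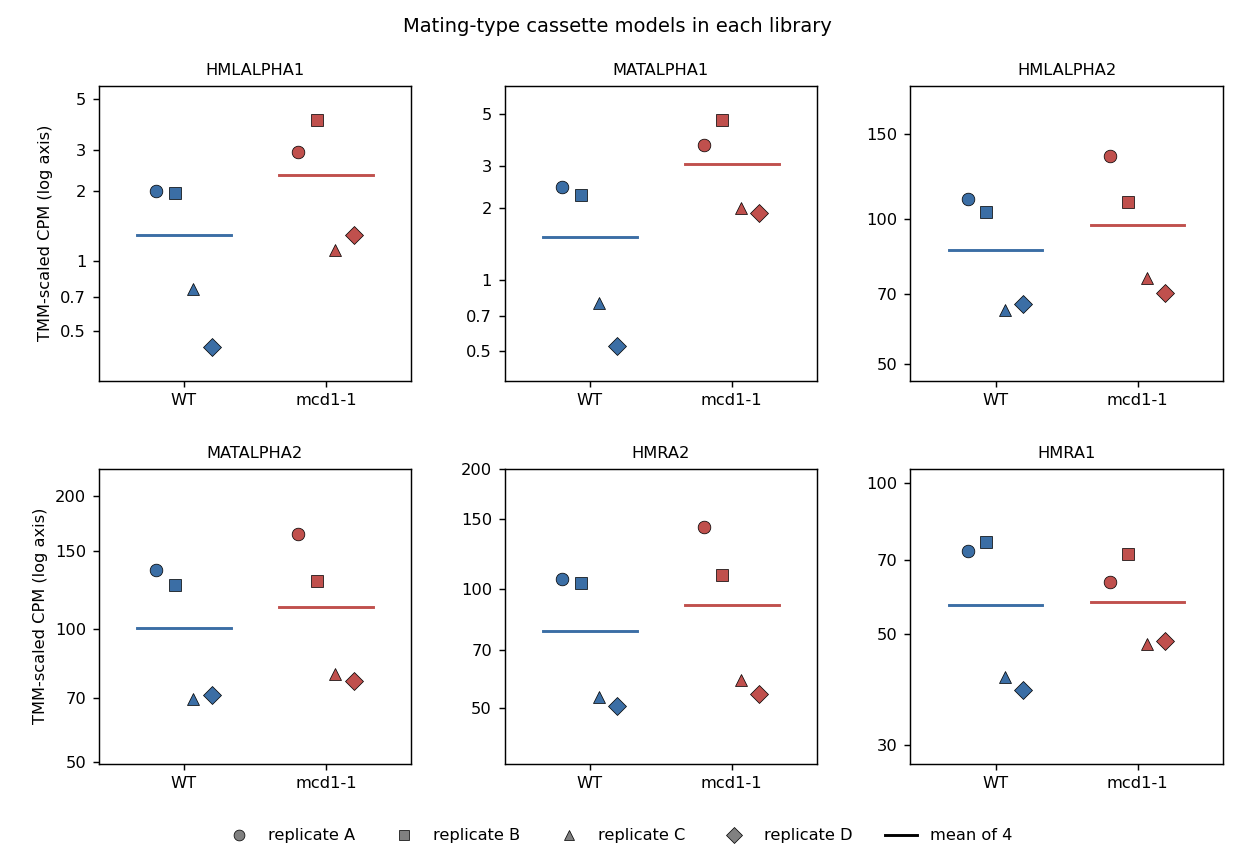
TMM-scaled CPM (log axis) of the 6 cassette models in each library, with a marker shape for each replicate letter and a line for the mean of 4. In every panel circles and squares (A and B) stand above triangles and diamonds (C and D) in both groups, and the groups overlap.

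**Figure D4:**
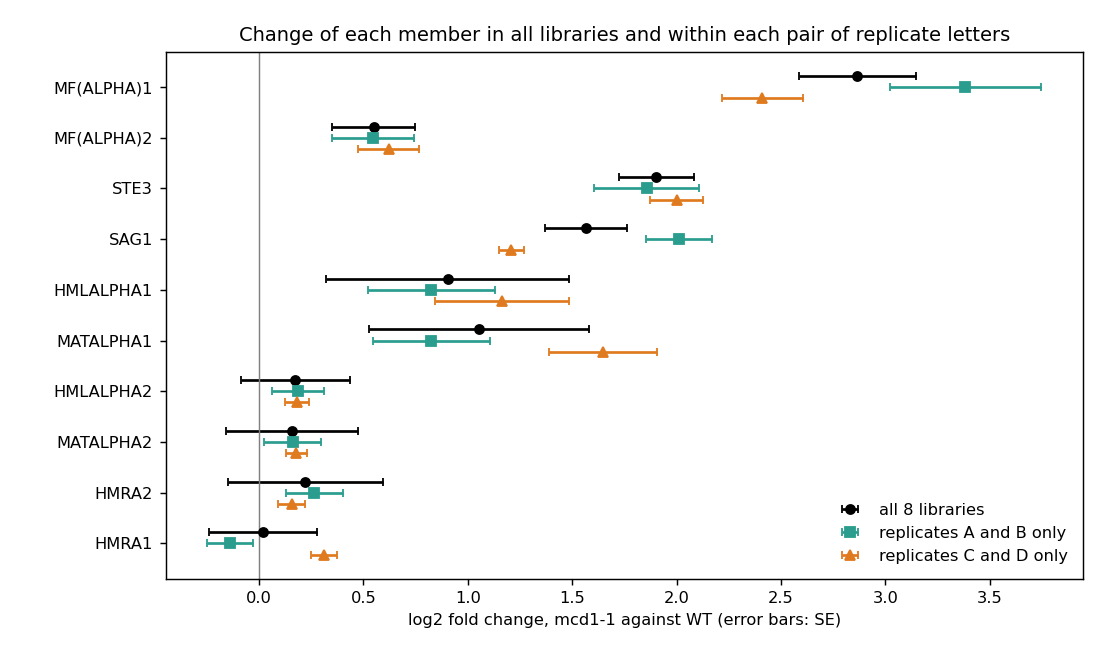
Log2 fold change of mcd1-1 against WT for each of the 10 genes (error bars, SE) from all 8 libraries, from replicates A and B only and from C and D only. MF(ALPHA)1, STE3 and SAG1 stay above 1 in each fit, and HMRA1 lies on either side of 0 in the separate sets.

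Per kilobase of model, levels in WT fell into a high and a low class. Length here is the full span of a model on the genome, with any intron counted in. The high class held HMRA2 (217 ± 84.5 CPM per kb), MATALPHA2 (159 ± 55.4), HMLALPHA2 (136 ± 37.7) and HMRA1 (117 ± 41.5). Their SDs hold the gap between the replicate sets, and within every WT library HMRA2 stood above HMRA1, for example at 288 against 156 CPM per kb in replicate B and 141 against 79.2 in replicate D. All models of this class but HMRA1 hold shared sequence, and the same reads may be counted in more than 1 of them. The low class began with MF(ALPHA)2 (17.2 ± 2.94 CPM per kb) and SAG1 (14.6 ± 3.50), whose means lay within their SD of each other. Their order depended on the set. MF(ALPHA)2 stood above SAG1 in WT A and B (20.35 and 18.73 against 11.37 and 11.85 CPM per kb). It stood below SAG1 in WT C and D (15.86 and 13.74 against 17.05 and 18.19). Lower in this class were STE3 (3.69 ± 0.43), MATALPHA1 (2.87 ± 1.88), HMLALPHA1 (2.44 ± 1.54) and MF(ALPHA)1 (1.44 ± 0.41). In mcd1-1 SAG1 led the low class at 43.3 ± 7.11 CPM per kb, followed by MF(ALPHA)2 at 25.1 ± 4.48, STE3 at 13.8 ± 2.47 and MF(ALPHA)1 at 10.8 ± 2.39. The alpha1 models were at 5.83 ± 2.55 CPM per kb (MATALPHA1) and 4.47 ± 2.67 (HMLALPHA1). In WT the place of MF(ALPHA)1 beside the alpha1 models depended on the set, being below both in A and B and level with them or above in C and D, and the means lay within their SD.

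Other genes of the mating pathway were taken from lists, and the direction differed between lists. The counts below stand beside 20.7% of all models called higher and 19.7% lower, or 29.4% and 30.2% with the replicate block. The pheromone-induced genes, which haploid cells switch on when they sense a partner, had 7 of 9 called higher and 0 lower, with a median log2 fold change of 1.23. Those called were FUS1, FUS2, AGA1, FIG1, FIG2, PRM1 and PRM6, while KAR4 and SST2 were not called. With the replicate block 8 of the 9 were called higher and 0 lower, with KAR4 added (0.57, adjusted p = 0.0206). FIG1, needed for calcium uptake during mating, went from 0.845 ± 0.0999 to 4.66 ± 0.522 CPM (log2 fold change 2.46 ± 0.21, adjusted p = 7.57e-05). PRM1, which acts in fusion of the mating cells' membranes, went from 11.6 ± 0.838 to 33.9 ± 6.31 CPM (1.55 ± 0.16, adjusted p = 0.000188). PRM6, at low levels, went from 0.258 ± 0.132 to 2.53 ± 1.09 CPM (3.33 ± 0.44, adjusted p = 0.000622).

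The a-specific genes, read from the other mating type's program, had 1 of 7 called higher and 0 lower, with a median of -0.41. AGA2 rose from 36.1 ± 6.47 to 52.8 ± 2.91 CPM (0.55 ± 0.15, adjusted p = 0.0156). BAR1, the protease that destroys alpha-factor, was at 220.3 ± 16.6 CPM in WT and 164 ± 37.1 CPM in mcd1-1 (-0.42 ± 0.18, adjusted p = 0.0855). MFA2, an a-factor gene, had -0.69 ± 0.35 (adjusted p = 0.141). With the replicate block 3 of the 7 were called higher and 3 lower.

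Of 11 haploid-specific genes, which are on in both haploid types and off in a/alpha cells, 4 were called lower and 0 higher. HO, the endonuclease gene of mating-type switching, fell from 54.6 ± 3.98 to 17.5 ± 3.03 CPM (-1.64 ± 0.15, adjusted p = 0.000102). STE4, the G protein beta subunit of the pheromone pathway, fell from 206 ± 5.92 to 103 ± 14.2 CPM (-1.0 ± 0.14, adjusted p = 0.000728). RME1, a repressor of meiosis, fell from 160.5 ± 19.7 to 91.9 ± 6.48 CPM (-0.80 ± 0.13, adjusted p = 0.0018). GPA1, the G protein alpha subunit, was the remaining gene called, at -0.57 ± 0.13 (adjusted p = 0.00625), a call that was lost with library size alone as the scaling (adjusted p = 0.17). The other 7 had log2 fold changes on either side of 0 and were not called. With library size alone the list had 2 called higher and 3 lower. The replicate block gave 0 higher and 5 lower, with STE18 added (-0.42, adjusted p = 0.0118).

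Genes whose products act on the alpha-specific proteins or on the cassettes showed few calls. Of the 3 genes for maturation of alpha-factor, STE13 (dipeptidyl aminopeptidase) fell from 145 ± 4.16 to 107 ± 9.13 CPM (-0.44 ± 0.12, adjusted p = 0.0149), while KEX2 (-0.08 ± 0.18) and KEX1 (0.10 ± 0.12) were not called. The call of STE13 was lost with upper-quartile scaling, with library size alone and without mcd1-1 A, C or D (adjusted p = 0.0838, 0.59, 0.0533, 0.069 and 0.0574). None of 5 regulators and cofactors was called by edgeR, and 0 of them had an unadjusted p under 0.05 or a call by DESeq2 or limma-voom. They included SWI5 (0.60 ± 0.34), ASH1 (-0.70 ± 0.45) and MCM1 (-0.28 ± 0.24), and with the replicate block SWI5 was called higher and ASH1 lower. MCM1 had 0.28 within A and B (adjusted p = 0.109) and -0.87 within C and D (adjusted p = 2.24e-06). Of 8 silencing proteins, SIR1, which helps to establish silencing at HML and HMR, rose from 23.5 ± 2.22 to 38.8 ± 8.26 CPM (0.73 ± 0.17, adjusted p = 0.00762). RAP1 (-0.32 ± 0.14, adjusted p = 0.0965) and SIR2 (-0.36 ± 0.23, adjusted p = 0.244) were not called, and with the replicate block SIR1 and SIR3 (0.34, adjusted p = 0.0429) were called higher and SIR2 lower (-0.34, adjusted p = 0.0246).

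**Figure D5:**
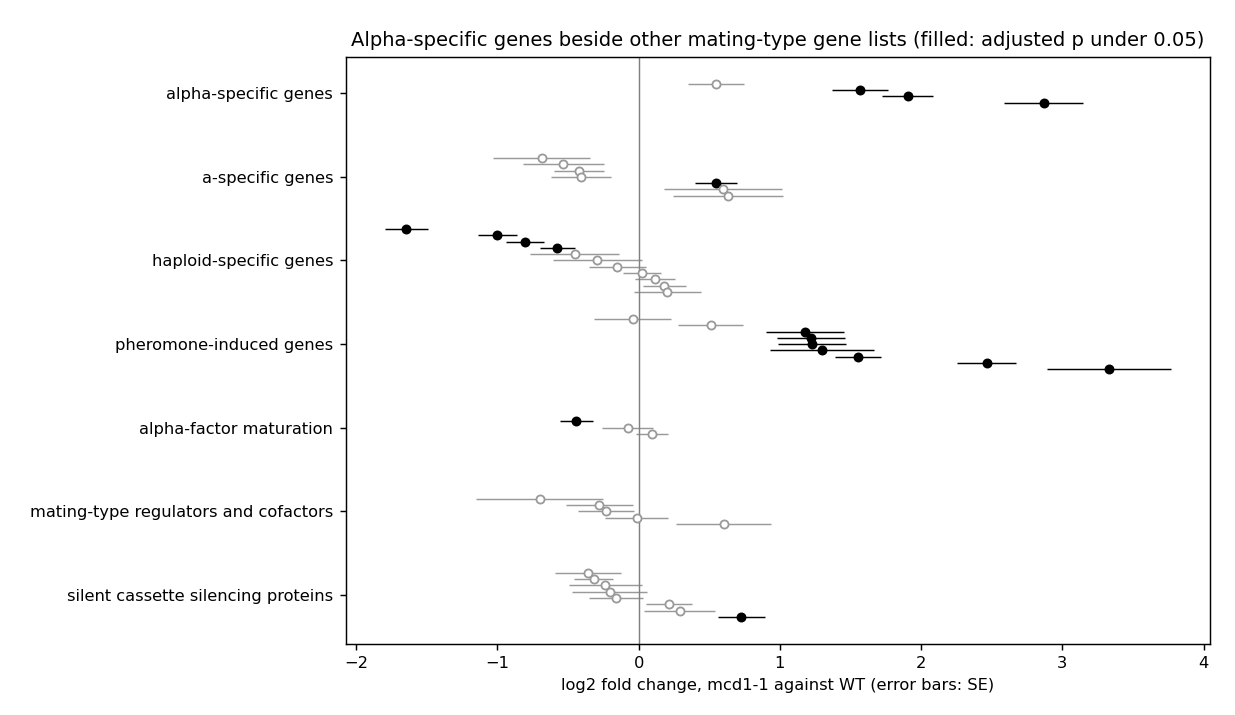
Log2 fold change of mcd1-1 against WT for every gene of the alpha-specific list and 6 other mating-type lists (error bars, SE; filled points, adjusted p under 0.05). The called pheromone-induced genes and alpha-specific genes lie to the right of 0 and the called haploid-specific genes to the left.

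The 3 nearest models on each side of each cassette were read as neighbours, 18 in all, of which 5 were called higher and 1 lower (27.8% and 5.56%, beside 20.7% and 19.7% of all models), so the count called higher is near the background. Beside HML on its outer side, GEX1 (2.10 ± 0.55, adjusted p = 0.0144) and VBA3 (1.36 ± 0.30, adjusted p = 0.00621) were called higher, but 60.2% and 74.8% of their 50-base stretches occur elsewhere in the genome. YCL068C, next to HMLALPHA2, had 0.32 ± 0.16 (adjusted p = 0.13), and CHA1 and VAC17 on the inner side were not called. At MAT, BUD5 (0.32 ± 0.11, adjusted p = 0.041) and YCR041W were called higher and YCR043C lower (-0.65 ± 0.11, adjusted p = 0.00161). BUD5 shares 37.1% and YCR041W 76.8% of its 50-base stretches with HML, and the call of BUD5 was lost without any 1 WT library (adjusted p = 0.0641 to 0.107) or without mcd1-1 A (0.0512). At HMR, YCR099C was called higher (1.27 ± 0.32, adjusted p = 0.0123), and the 5 nearer models, among them YCR097W-A (1.05 ± 0.51, adjusted p = 0.128), were not. The replicate block added calls for YCL065W (0.75, adjusted p = 0.0105), TAF2 (0.36, 0.0217) and YCR097W-A (1.11, 0.0171) as higher and for CDC50 (-0.37, 0.0234) and GIT1 (-0.62, 0.0178) as lower.

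For each of the 10 genes, the 3 models of at least 1 CPM whose log2 level followed it most closely over the 8 libraries were found among 6526. Pearson's r is a description here, since the libraries share their groups and sets. MF(ALPHA)1 was followed by YJL222W-B and FRM2 (both 0.997) and PLM2 (0.995). MF(ALPHA)2 was followed less closely, by YCR102C (0.977), ECM38 (0.974) and YMR103C (0.967). STE3 was followed by YDL199C and GDH2 (both 0.996) and SEO1 (0.995), and SAG1 by YNL203C and PDR10 (both 0.997) and YEL023C (0.996). The nearest models of the alpha1 genes were YJR012C (0.991), MTC3 (0.99) and BNS1 (0.984) for HMLALPHA1 and YGR050C (0.994), YOR289W (0.993) and CPR6 (0.989) for MATALPHA1. The alpha2 and a2 models followed each other at 0.995 to 0.997, with RRN5 and EMI2 next at 0.994 to 0.995. HMRA1 was followed by RRT8 (0.994), NYV1 (0.992) and COS1 (0.987).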

How the data were processed

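The deposited table holds raw counts of reads per gene model, which the authors had not normalised, and 4 lines of it were empty. Per the submitters' processing notes, bcl2fastq 2.9, Trim Galore 0.4.3, STAR 2.5.3a, Picard, featureCounts 1.6.0 and the genome build R64 were used. The sources used here give neither the strand setting nor the handling of reads with several places. Per the labels, RNA was extracted with a Qiagen RNeasy kit and prepared for sequencing with a NEBNext Ultra kit; the series' design text names a HiSeq X.

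Counts were filtered with filterByExpr (6558 models left), scaled by TMM (factors 0.879 to 0.902 in WT, 1.09 to 1.21 in mcd1-1) and tested in edgeR 4.0.16 under R 4.3.3 with its quasi-likelihood F test (2-sided, group as sole term), and Benjamini-Hochberg adjustment ran over all models tested. The procedure was tested on simulated data. Exact permutation tests used scipy 1.17.1. Sequences came from the RefSeq R64 genome, where the coordinates of 10 of 10 genes equalled the table's.

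The genes and lists were chosen with earlier results of these data known. Up to 3 genes of each list, those with the smallest p, were named, with STE2 and GPA1 added after their values were seen. Alternatives were RLE, upper-quartile and library-size scaling, DESeq2 1.42.0, limma-voom (limma 3.58.1), robust fitting, 3 other low-count filters, blocks, each replicate set alone, summed models and leaving out each library.

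Replicates of a group differed beyond sampling noise in every pair (chi-square per degree of freedom 11.8 to 541). Deviations from the group mean correlated between same-lettered WT and mcd1-1 libraries at 0.606, 0.452, 0.633 and 0.598 for A to D. Other letters within A and B (0.653 and 0.49) or C and D (0.593 and 0.643) gave values of like size. Pairs that cross the sets gave -0.643 to -0.448. These values set the replicate sets apart and do not mark the letters as pairs. The letters were therefore a block in an alternative fit only, and the main test did not pair them.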

Additional observations from a re-analysis of the deposited data

Results flagged for a closer look

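SAG1 in mcd1-1 replicate B stood at 105.4 CPM, apart from the other 3 mcd1-1 libraries, with a gap to the nearest of them of 0.921 of the group's range, above Dixon's 95% critical value for 4 samples. In all, 20 groups of 4 values were looked at (10 genes in WT and in mcd1-1), and chance flags about 1 in 20. The same library was the highest of its group for MF(ALPHA)1, STE3, HMLALPHA1, MATALPHA1 and HMRA1. Without it the log2 fold change of SAG1 was 1.49 (edgeR, adjusted p = 0.00169).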

How the results depend on the processing

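MF(ALPHA)1, STE3 and SAG1 were called higher under every alternative that tested them; a filter of 10 CPM in 4 libraries left 6 of the 10 genes, with 2 called. MF(ALPHA)2 (0.55, adjusted p = 0.0516) was called with upper-quartile scaling (0.69), library size alone (0.89), DESeq2 (0.53), limma-voom (0.57), the replicate block (0.55), a block of the sets A and B against C and D (0.55), A and B only (0.55) and C and D only (0.62). Leaving out WT A or mcd1-1 C also gave a call, and leaving out any other single library did not. RLE scaling, robust fitting, the other low-count filters that kept MF(ALPHA)2 and the summed models gave no call for it either. HMLALPHA1 was called with the replicate block and the block of sets (0.94 in both), A and B only (0.82) and C and D only (1.17). MATALPHA1 was called with the replicate block (1.17), the block of sets (1.16), A and B only (0.83) and C and D only (1.65). The sum of MATALPHA1 with its overlapping model YCR041W was also called (0.74), but most counts in that sum came from YCR041W. The replicate block changed no other call among the 10 genes. C and D alone also gave calls for HMLALPHA2 (0.18), MATALPHA2 (0.18) and HMRA1 (0.31). HMRA1 turned sign with RLE scaling and with DESeq2 (-0.002 in both), in A and B only (-0.14), and without WT C (-0.11), WT D (-0.13) or mcd1-1 B (-0.05). Without mcd1-1 A the sign turned for MATALPHA2 (-0.037), HMRA2 (-0.035) and the summed alpha2 and a2 models (-11.9 CPM). The cause of these differences was not tested.

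Members called higher numbered 6 under the replicate block, the block of sets and A and B only, and 9 with C and D only. All models called higher numbered 2460 with library size alone, 2207 with the block of sets, 2287 in A and B and 2549 in C and D, and those called lower 550, 2241, 2164 and 2436, with 1978 under the replicate block. Library size alone moved the median log2 fold change of all models to 0.33 with 81.7% of calls higher, and upper-quartile scaling to 0.13 with 65.5%, against 51.3% with TMM.

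Leaving out 1 library at a time gave log2 fold changes of 2.71 to 3.05 for MF(ALPHA)1, 0.46 to 0.69 for MF(ALPHA)2, 1.83 to 2.05 for STE3, 1.46 to 1.69 for SAG1, 0.55 to 1.20 for HMLALPHA1, 0.74 to 1.39 for MATALPHA1, 0.03 to 0.34 for HMLALPHA2, -0.04 to 0.34 for MATALPHA2, -0.04 to 0.44 for HMRA2 and -0.13 to 0.19 for HMRA1. It left 3 to 4 members called higher, 1163 to 1373 models higher and 859 to 1249 lower, the fewest lower without mcd1-1 B. The difference in summed alpha1 CPM was 1.53 to 3.40, in summed alpha2 and a2 CPM -11.9 to 68.7, and in alpha1 per 100 HMRA1 counts 3.40 to 5.26. MF(ALPHA)1 in WT rests on 9 to 38 counts and the alpha1 models on 17 to 51 counts, so their fold changes carry counting error. The SE was 0.28 for MF(ALPHA)1, 0.58 for HMLALPHA1 and 0.53 for MATALPHA1. Under the replicate block it was 0.25 for each alpha1 model. What sets the size of these SEs was not tested.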

Other observations

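In mcd1-1 replicate A the alpha2 and a2 models together had 6.97 counts per count of HMRA1, above the 4.15 to 4.89 of the other 7 libraries. The value of replicate A was picked out after it was seen and has no test.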
